A study of Mus musculus with 8 samples.

Results

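The genes described here are 9 regulators and markers of plasma cell fate: Irf4, Prdm1, Xbp1, Jchain, Mzb1, Sdc1, Tnfrsf17, Ell2 and Creld2. The rule that chose them names gene symbols and uses no measured value, although it was set with earlier results of these data known, and all 9 were found among the 55421 genes counted. Of these, 8 passed the filter on low counts together with 12997 genes in all, and Tnfrsf17 did not pass and was not tested. RNA was sequenced in bulk from germinal centre (GC) B cells of the spleen of C57BL/6 mice aged 8 to 10 weeks, at day 10 after immunization, isolated with a PNA MicroBead kit. The 4 groups of 2 libraries each were Smarca4+/- CC, Smarca4+/+ CC, Smarca4+/- CB and Smarca4+/+ CB. Smarca4+/- mice carry 1 intact copy of Smarca4, which encodes Brg1, the motor subunit of SWI/SNF chromatin remodellers, and Smarca4+/+ mice carry 2. The names CB and CC were taken to mean centroblasts, which divide in the dark zone, and centrocytes, which are selected in the light zone. The labels do not state the immunogen, how CB and CC were separated, in which cells the Smarca4 copy was lost, or whether replicates came from separate mice. The p-values therefore set a difference between groups against a spread between libraries that may be only technical in origin.

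A GC B cell that becomes a plasma cell exchanges its B cell programme for one of antibody secretion. Irf4, a transcription factor raised by antigen receptor and CD40 signals, at high levels induces Prdm1 (Blimp-1), a repressor that shuts down Bcl6, Pax5 and other B cell genes. Xbp1, spliced by the sensor IRE1 when the endoplasmic reticulum (ER) is under load, then drives the chaperones and transport machinery that a secreting cell needs. Bcl6, Bach2 and Pax5 oppose this switch by repressing Prdm1 or Xbp1.

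The labels were checked on the targeted gene and on marker genes. Smarca4 stood at 244 and 311 CPM (counts scaled to a common library total, with TMM factors) in Smarca4+/- CC and at 322 and 316 CPM in Smarca4+/+ CC, and at 734 and 702 CPM in Smarca4+/- CB against 897 and 1002 CPM in Smarca4+/+ CB. It lay lower in every Smarca4+/- library than in either Smarca4+/+ library of the same fraction, but passed the test in neither (edgeR adjusted p = 0.607 in CC and 1 in CB). All 8 GC B cell markers were detected in every library, with a sum of 2496 to 3174 CPM in CC and 3146 to 3679 CPM in CB. The summed light zone markers stood at 772 to 1058 CPM in CC and 276.9 to 342.5 CPM in CB. Dark zone markers summed to 368.1 to 518.1 CPM in CC and 1210 to 1412 CPM in CB. Total counts were 526353 to 837558 in the CC libraries and 18357578 to 24341805 in the CB libraries, so CC values carry much more counting error. The CC libraries also held RNA of other cells. The sum of 5 neutrophil markers was 213.7 CPM in Smarca4+/- CC replicate 1 and 9.49 CPM in replicate 2. It was 0 in both Smarca4+/+ CC libraries and 0 to 3.06 CPM in CB. The sum of 12 macrophage markers was 1745 to 3963 CPM in CC and 57.0 to 268 CPM in CB, that of 11 T cell markers was 36.8 to 413 CPM in CC and 2.16 to 3.73 CPM in CB (a further marker, Lck, left out after its values were seen, stood at 100.1 to 204 CPM in CC and 108 to 132 CPM in CB), and that of 9 erythroid markers was 128 to 778 CPM in CC and 5.43 to 12.8 CPM in CB.

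Promoters of 3 members are shown: Irf4 and Prdm1, the regulators that stood higher in CC, and Creld2, an ER gene. Irf4 and Prdm1 were thus chosen with their values known. Each of the 3 carries a short motif that was searched for, as does Tnfrsf17, which is not shown. The sequences are from RefSeq on GRCm38.p6 and cover the 250 bases before the start of transcription, on the strand of the gene. Capitals mark TATAAA in Irf4 (chr13:30748983-30749232, + strand). In Prdm1 (chr10:44458749-44458998, - strand) they mark a match to TGANTCA, a loose AP-1 type pattern with any base at its centre, here TGAATCA. In Creld2 (chr15:88819396-88819645, + strand) they mark the ER stress element (ERSE, which reads CCAAT, 9 free bases, CCACG, here on the opposite strand).
Irf4: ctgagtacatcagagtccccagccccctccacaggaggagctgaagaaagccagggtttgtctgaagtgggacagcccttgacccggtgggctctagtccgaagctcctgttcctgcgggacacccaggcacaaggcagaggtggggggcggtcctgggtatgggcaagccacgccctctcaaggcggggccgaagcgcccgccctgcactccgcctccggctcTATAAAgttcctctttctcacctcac
Prdm1: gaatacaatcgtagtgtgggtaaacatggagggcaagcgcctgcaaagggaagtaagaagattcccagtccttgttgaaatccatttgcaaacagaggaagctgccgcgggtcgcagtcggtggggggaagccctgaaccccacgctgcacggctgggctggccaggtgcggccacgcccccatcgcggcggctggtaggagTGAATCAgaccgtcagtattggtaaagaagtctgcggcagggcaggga
Creld2: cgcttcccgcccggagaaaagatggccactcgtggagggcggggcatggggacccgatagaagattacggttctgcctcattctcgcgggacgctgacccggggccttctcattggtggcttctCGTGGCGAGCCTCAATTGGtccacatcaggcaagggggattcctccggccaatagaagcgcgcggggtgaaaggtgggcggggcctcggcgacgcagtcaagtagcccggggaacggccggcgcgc
RefSeq promoters were found for 8 of the 9 members, and each motif was searched on both strands of 32851 promoters. TATAAA was in 12.4% of all promoters and in 2 members (Irf4 and Tnfrsf17), TGANTCA was in 6.75% and in 1 member (Prdm1), and the ERSE was in 0.113% and in 1 member (Creld2). The repeat of GAAA, 2 free bases and GAAA, an interferon response type motif, was in 2.98% and in 1 member (Tnfrsf17). The composite of GGAA, 2 free bases and GAAA, bound by ETS factors with Irf4, was in 2.3% of promoters and the Xbp1 element core TGACGTGG in 0.563%, and neither was in a member. The RefSeq start of Prdm1 lies inside the span over which its reads were counted. These matches describe letters in a window and do not show binding.

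Between the fractions the members did not move as a block. Jchain fell in CC of Smarca4+/- cells, a call lost on leaving out any of the 4 libraries compared. Of the regulators, Irf4 rose in CC of Smarca4+/+ cells. Prdm1 stood above its CB level in every CC library on few reads without passing the test, and Xbp1 passed it in neither genotype. In CC against CB of Smarca4+/- cells, 0 of the 8 tested members rose, where 2.17% of all tested genes rose, and 1 fell, which is Jchain, where 1.5% of all tested genes fell. In Smarca4+/+ cells 1 of 8 rose, which is Irf4, where 3.72% of all tested genes rose, and 0 fell, where 3.76% of all tested genes fell. The median log2 fold change of the tested members was 0.36 in Smarca4+/- cells, where all genes had a median of -0.08, and 0.16 in Smarca4+/+ cells, where all genes had a median of -0.19. The CC and CB libraries did not overlap for 4 of 8 members in Smarca4+/- cells, where 53.4% of all tested genes did not overlap, and for 6 of 8 in Smarca4+/+ cells, where 56.7% did not, so these counts are near the background.

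**Figure D1:**
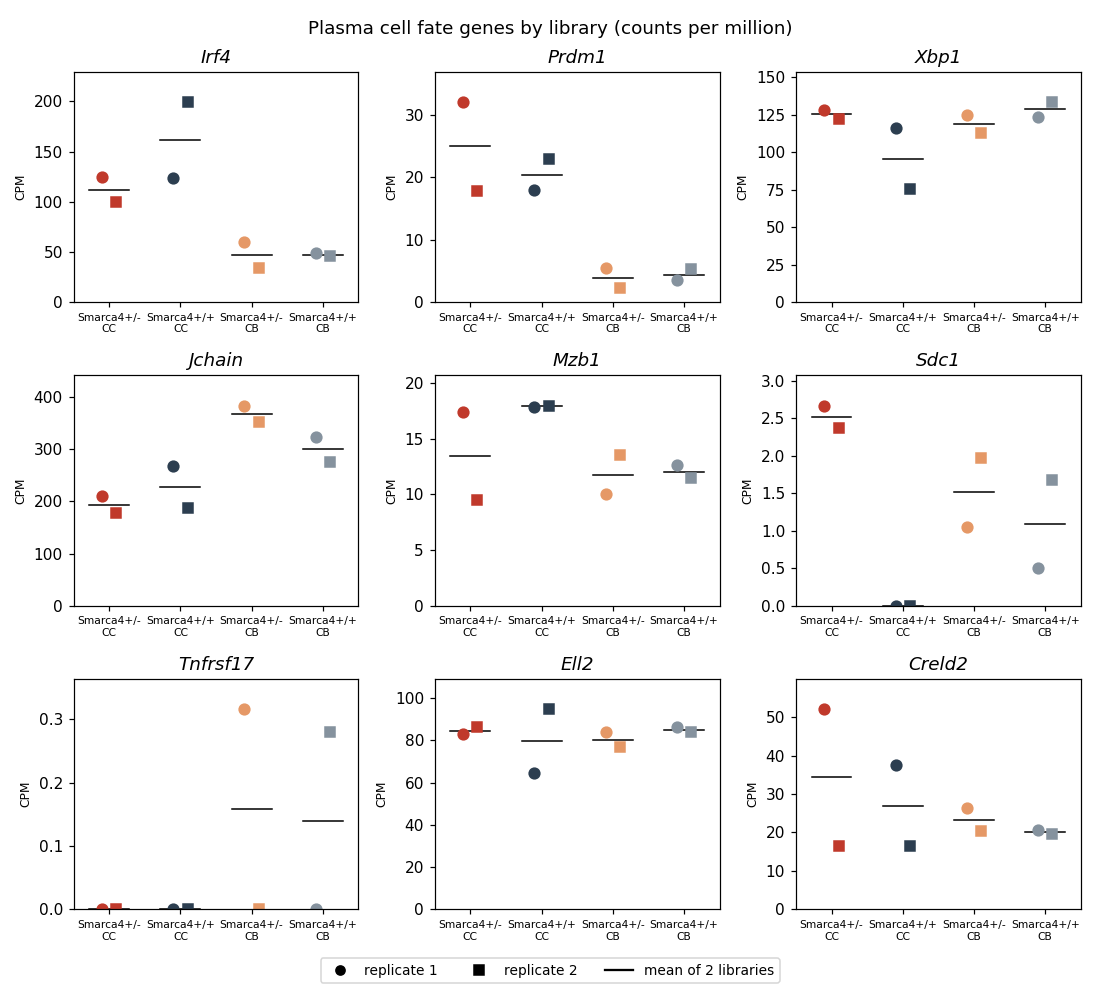
CPM of the 9 plasma cell fate genes in each of the 8 libraries, with a panel and a y axis from 0 for each gene, the groups along the x axis, symbols for replicates 1 and 2 and a line at the mean of 2 libraries. Irf4 and Prdm1 stand higher in all CC libraries than in any CB library, Jchain stands lower, and Tnfrsf17 is at 0 counts in every CC library.

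Irf4 (ENSMUSG00000021356.10, mm10 chr13:30749226-30766976, + strand) had 124 and 99.6 CPM in Smarca4+/- CC, 123 and 199 CPM in Smarca4+/+ CC, 59.4 and 34.4 CPM in Smarca4+/- CB, and 49.0 and 45.7 CPM in Smarca4+/+ CB. Every CC library lay above every CB library, and the highest of the 8 was a Smarca4+/+ CC library. In CC against CB of Smarca4+/- cells the log2 fold change was 1.25 (SE 0.33, edgeR adjusted p = 0.0656), and DESeq2 called it (adjusted p = 0.00433). In Smarca4+/+ cells Irf4 rose 3.42-fold (log2 fold change 1.77, SE 0.33, edgeR adjusted p = 0.0109). That call was lost without Smarca4+/+ CC replicate 2 (adjusted p = 0.0543), without Smarca4+/+ CB replicate 1 (0.085) and without Smarca4+/+ CB replicate 2 (0.0991). The difference between the genotypes in this change was -0.52 (SE 0.46, adjusted p = 0.712 in edgeR), so the responses were not shown to differ.

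Prdm1 (ENSMUSG00000038151.13, mm10 chr10:44437177-44528501, - strand) had 32.0 and 17.8 CPM in Smarca4+/- CC, 17.9 and 22.9 CPM in Smarca4+/+ CC, 5.48 and 2.31 CPM in Smarca4+/- CB, and 3.56 and 5.27 CPM in Smarca4+/+ CB. All 4 CC libraries lay above all 4 CB libraries, while the genotypes overlapped in both fractions. The CC values rest on 24 and 15 counts in Smarca4+/- and on 10 and 14 counts in Smarca4+/+. With both libraries summed, the level was 24.5 CPM in Smarca4+/- CC (95% Poisson interval 17.4 to 33.5, counting error only) and 20.5 CPM in Smarca4+/+ CC (13.1 to 30.5). The log2 fold change of CC against CB was 2.67 (SE 0.70, edgeR adjusted p = 0.0623) in Smarca4+/- cells and 2.21 (SE 0.71, edgeR adjusted p = 0.0895) in Smarca4+/+ cells. DESeq2 called both (adjusted p = 0.000369 in Smarca4+/- cells and 0.00498 in Smarca4+/+ cells), and edgeR called the change in Smarca4+/- cells without Smarca4+/- CC replicate 2 (adjusted p = 0.0364). On leaving out each library the log2 fold change ranged from 2.17 to 3.49 in Smarca4+/- cells, the highest without Smarca4+/- CB replicate 1, and from 1.98 to 2.57 in Smarca4+/+ cells.

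Irf4 and Prdm1 are also made by T cells and by some myeloid cells. Markers of such cells moved with them: 5 of 12 T cell markers rose in CC of Smarca4+/- cells and 9 of 12 in Smarca4+/+ cells, and 12 of 12 macrophage markers rose in Smarca4+/- cells and 11 of 12 in Smarca4+/+ cells. The T cell sum without Lck was 167 and 36.8 CPM in Smarca4+/- CC, 413 and 394 CPM in Smarca4+/+ CC, and 2.16 to 3.73 CPM in CB, where 3 to 6 of these 11 markers were at 0 in each library. With Lck it was 203 to 267 CPM in Smarca4+/- CC, 574 to 598 CPM in Smarca4+/+ CC and 110.5 to 135 CPM in CB. In Smarca4+/- CC replicate 2, Trbc1 and Themis were also at 0. The macrophage sum was 3963 and 1745 CPM in Smarca4+/- CC and 3261 and 3363 CPM in Smarca4+/+ CC. Prdm1 was highest in the library at 3963 CPM, which also held the highest neutrophil sum (213.7 CPM). Irf4 was highest in Smarca4+/+ CC replicate 2. The part of these cells in the Irf4 and Prdm1 values was not tested. The dendritic markers summed to 32.0 to 68.7 CPM in CC and 18.0 to 27.8 CPM in CB with 0 of 3 tested called. Of 6 plasmacytoid dendritic cell markers, the 5 other than Tcf4, which was left out after its values were seen and had 172 to 314 CPM in every library, summed to 0 and 3.56 CPM in Smarca4+/- CC, 32.2 and 9.81 CPM in Smarca4+/+ CC, and 0 to 0.0933 CPM in CB. Of these 5, Klk1 and Cox6a2 were at 0 in all 8 libraries, while Siglech, Ccr9 and Runx2 had counts in some CC libraries. In bulk RNA a change in the number of such cells and a change in RNA per cell cannot be told apart.

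Xbp1 (ENSMUSG00000020484.19, mm10 chr11:5520659-5525893, + strand) had 128 and 122 CPM in Smarca4+/- CC, 116 and 75.2 CPM in Smarca4+/+ CC, 124 and 113 CPM in Smarca4+/- CB, and 123 and 133 CPM in Smarca4+/+ CB. Of the 8 libraries 7 lay between 113 and 133 CPM, and the Smarca4+/+ CC library at 75.2 CPM stood below them. The log2 fold change of CC against CB was 0.08 (SE 0.25, edgeR adjusted p = 0.908) in Smarca4+/- cells and -0.43 (SE 0.26, edgeR adjusted p = 0.341) in Smarca4+/+ cells. A count per gene does not separate the spliced Xbp1 mRNA, which encodes the active factor, from the unspliced form.

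Ell2 (ENSMUSG00000001542.7, mm10 chr13:75706757-75772364, + strand), an elongation factor that in plasma cells promotes processing of the immunoglobulin heavy chain mRNA to its secreted form, varied little. It had 82.8 and 86.5 CPM in Smarca4+/- CC, 64.3 and 94.8 CPM in Smarca4+/+ CC, 83.8 and 76.7 CPM in Smarca4+/- CB, and 86.1 and 83.8 CPM in Smarca4+/+ CB. The groups overlapped in every comparison. The log2 fold change of CC against CB was 0.08 (95% interval -0.50 to 0.65) in Smarca4+/- cells and -0.09 (-0.68 to 0.50) in Smarca4+/+ cells.

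Jchain (ENSMUSG00000067149.6, mm10 chr5:88519809-88527891, - strand) encodes the joining chain of polymeric IgM and IgA. It had 209.6 and 177 CPM in Smarca4+/- CC, 268 and 186 CPM in Smarca4+/+ CC, 383 and 352 CPM in Smarca4+/- CB, and 323 and 276 CPM in Smarca4+/+ CB. All CC libraries lay below all CB libraries, which is the reverse of Irf4 and Prdm1. Jchain fell in CC against CB of Smarca4+/- cells (log2 fold change -0.93, SE 0.22, edgeR adjusted p = 0.0402), and stood at -0.40 (SE 0.22, edgeR adjusted p = 0.298) in Smarca4+/+ cells. The call was lost on leaving out any of the 4 Smarca4+/- libraries in turn (adjusted p = 0.0883 to 0.379) and with limma-voom (0.122), RLE scaling (0.0702), total count scaling (0.126), at least 50 counts in 2 libraries (0.0682), CB libraries thinned to the CC depth (0.0583) or only the groups compared (0.0688). The difference between genotypes in this change did not pass the test (-0.53, SE 0.31, edgeR adjusted p = 0.598).

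The antibody constant genes, of which Ighm and Igha encode the heavy chains of the IgM and IgA that the J chain joins, gave a mixed picture beside it. Ighm, the mu heavy chain, had 2178 and 3162 CPM in Smarca4+/- CC against 5287 and 4433 CPM in Smarca4+/- CB, and it fell there (log2 fold change -0.86, SE 0.18, edgeR adjusted p = 0.0265). Igkc, the kappa light chain, fell there as well (-0.92, SE 0.15, edgeR adjusted p = 0.00906). In CC against CB of Smarca4+/- cells 0 of the 11 constant genes rose and 2 fell, and both calls were lost without either Smarca4+/- CB library (adjusted p up to 0.34 for Ighm and 0.159 for Igkc). The call of Ighm was also lost without Smarca4+/- CC replicate 1, with limma-voom (0.293), with total count scaling (0.0648) and with at least 50 counts in 2 libraries (0.0535). Both calls were lost in a fit of only the groups compared (0.131 for Ighm and 0.0585 for Igkc). In Smarca4+/+ cells 3 rose and 1 fell, led by Igha, the alpha heavy chain (3.74, SE 0.48, edgeR adjusted p = 0.00201), and Ighg2b (1.66, SE 0.21, edgeR adjusted p = 0.00173), both of which stayed called without each of the 4 libraries in turn, while Igha was lost in a fit of only the groups compared (0.0503). The log2 fold change of Igha was 4.94 without Smarca4+/+ CB replicate 1 and 3.16 without Smarca4+/+ CB replicate 2. The gene that fell there is Ighg3 (-1.28, SE 0.31, edgeR adjusted p = 0.0321), a call lost on leaving out any of the 4 libraries (adjusted p up to 0.177) and with RLE scaling (0.0544). Ighg3 was also not called with limma-voom (0.127), or in edgeR with total count scaling (adjusted p = 0.0792) or thinned CB libraries (0.0581). Igha and Ighg2b were also the constant genes called between genotypes in CC, as given further below.

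Mzb1 (ENSMUSG00000024353.5, chromosome 18), an ER cofactor of antibody assembly, had 17.4 and 9.49 CPM in Smarca4+/- CC, 17.9 and 18.0 CPM in Smarca4+/+ CC, 10.0 and 13.5 CPM in Smarca4+/- CB, and 12.6 and 11.4 CPM in Smarca4+/+ CB. The Smarca4+/+ fractions did not overlap and the Smarca4+/- fractions did. The log2 fold change of CC against CB was 0.18 (SE 0.58, edgeR adjusted p = 0.904) in Smarca4+/- cells and 0.57 (SE 0.58, edgeR adjusted p = 0.569) in Smarca4+/+ cells, on 21 counts in each CC group.

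Creld2 (ENSMUSG00000023272.4, mm10 chr15:88819646-88826683, + strand), an ER protein induced by ER stress, had 52.1 and 16.6 CPM in Smarca4+/- CC, 37.5 and 16.3 CPM in Smarca4+/+ CC, 26.2 and 20.3 CPM in Smarca4+/- CB, and 20.6 and 19.7 CPM in Smarca4+/+ CB. Replicate 1 stood highest and replicate 2 lowest in both CC groups, so CC spanned the whole CB range. Neither change passed the test (log2 fold change 0.55, SE 0.55, edgeR adjusted p = 0.638 in Smarca4+/- cells and 0.41, SE 0.59, edgeR adjusted p = 0.692 in Smarca4+/+ cells).

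The surface markers of finished plasma cells were at or near the limit of detection. Sdc1 (ENSMUSG00000020592.14, mm10 chr12:8771323-8793715, + strand), which encodes the plasma cell antigen CD138, had 2 and 2 counts in Smarca4+/- CC, 0 and 0 in Smarca4+/+ CC, 20 and 41 in Smarca4+/- CB, and 10 and 36 in Smarca4+/+ CB. These are 2.67 and 2.37 CPM in Smarca4+/- CC, 1.05 and 1.97 CPM in Smarca4+/- CB, and 0.508 and 1.68 CPM in Smarca4+/+ CB. A count of 0 over both Smarca4+/+ CC libraries allows up to 2.56 CPM, which is above the level in CB, and 1.31 counts would be found there at the CB level. A fall of Sdc1 in CC was thus not detectable at this depth. In Smarca4+/- CC 4 counts were found where 2.44 would be found at the CB level. Tnfrsf17 (ENSMUSG00000022496.5, mm10 chr16:11313812-11320074, + strand), which encodes BCMA, a survival receptor of plasma cells, had 0 counts in all 4 CC libraries, 6 and 0 in Smarca4+/- CB, and 0 and 6 in Smarca4+/+ CB. At the CB level 0.24 counts would be found in Smarca4+/- CC and 0.171 in Smarca4+/+ CC, so its absence from CC counts says nothing about a change.

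Per kilobase of counted length, which allows genes to be set beside each other, Jchain was the highest of the 9 in all 4 groups. It averaged 76.7 ± 9.27 CPM per kb in Smarca4+/- CC, 90.3 ± 22.9 in Smarca4+/+ CC, 146 ± 8.91 in Smarca4+/- CB and, in the CB libraries of Smarca4+/+ mice, 119 ± 13.3 (SD, n = 2). It came to 30.4% to 57.3% of the summed CPM of the 9 genes, a sum that stood at 531 to 649 CPM in CC and 577 to 694 CPM in CB. In Smarca4+/+ CB the order after Jchain was Xbp1 (39.5 CPM per kb), Creld2 (14.7), Mzb1 (9.91), Irf4 (9.65), Ell2 (8.65), Prdm1 (0.791), Sdc1 (0.287) and Tnfrsf17 (0.172), in which Mzb1 overlapped with Irf4, and Sdc1 with Tnfrsf17, between libraries. In Smarca4+/+ CC Irf4 (32.9 ± 10.98 CPM per kb) stood beside Xbp1 (29.5 ± 8.92), and the SDs of these means overlap. The percentile of Irf4 among the tested genes was 88.6 in Smarca4+/- CC and 92.2 in Smarca4+/+ CC, against 68.1 in Smarca4+/- CB and 68.7 in Smarca4+/+ CB. Prdm1 stood at percentile 47.5 in Smarca4+/- CC and 44.3 in Smarca4+/+ CC, against 16.5 in Smarca4+/- CB and 17.1 in Smarca4+/+ CB.

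**Figure D2:**
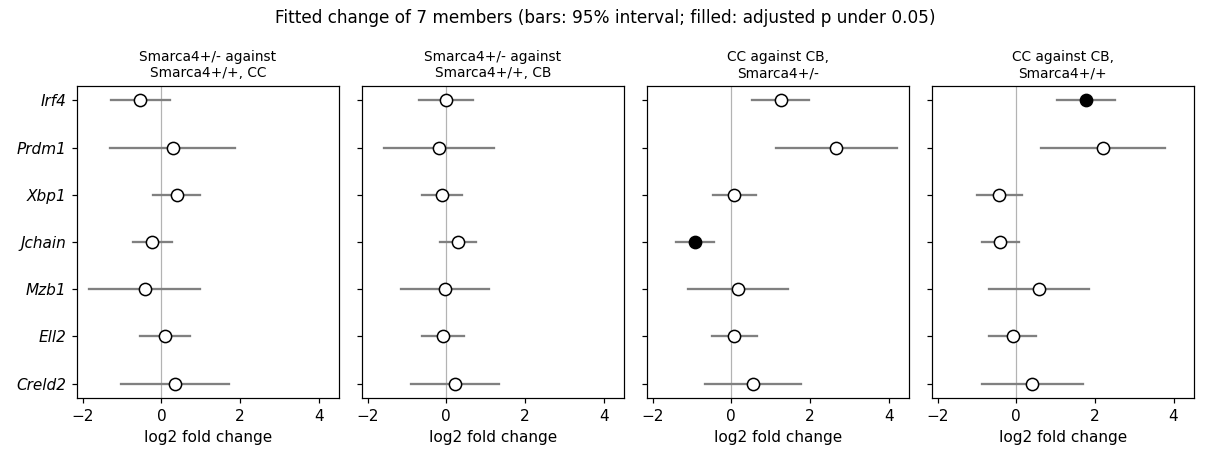
Fitted log2 fold changes of 7 members (x axis) with 95% intervals as bars, for CC against CB and for Smarca4+/- against Smarca4+/+, with filled points where the edgeR adjusted p was under 0.05. Irf4 in Smarca4+/+ cells and Jchain in Smarca4+/- cells are the filled points, and all genotype intervals include 0.

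Some of the opposing B cell regulators fell in CC. Of 13 genes of B cell identity and Prdm1 repression, 0 rose and 2 fell in CC of Smarca4+/- cells (median log2 fold change -0.57), and 0 rose and 3 fell in CC of Smarca4+/+ cells (median -0.50). Bach2, a repressor of Prdm1, had 382 and 825 CPM in Smarca4+/- CC and 1557 and 1511 CPM in Smarca4+/- CB, and fell by 1.34 on the log2 scale (SE 0.27, edgeR adjusted p = 0.0224), a call lost without either Smarca4+/- CB library (adjusted p up to 0.204) or with only the groups compared (0.0971), while without Smarca4+/- CC replicate 2 the change was -2.03. It had 509 and 530 CPM in Smarca4+/+ CC and 1699 and 1761 CPM in Smarca4+/+ CB, and fell by 1.74 (SE 0.28, edgeR adjusted p = 0.00453), also without each of these 4 libraries. Spib, an ETS factor that represses the plasma cell programme, fell in Smarca4+/- cells (-0.79, SE 0.17, edgeR adjusted p = 0.0297) and in Smarca4+/+ cells (-0.83, SE 0.17, edgeR adjusted p = 0.016). Both calls of Spib were lost without 3 of the 4 libraries of the comparison, which are CC replicate 1 and each CB library in Smarca4+/- cells (adjusted p up to 0.257), and CC replicate 2 and each CB library in Smarca4+/+ cells (up to 0.154). With total count scaling Spib was called in neither genotype (0.0805 in Smarca4+/- and 0.0687 in Smarca4+/+ cells). Its Smarca4+/- call was also lost in edgeR with at least 50 counts in 2 libraries (adjusted p = 0.0513), thinned CB libraries (0.0527) or only the groups compared (0.105). Bcl6, the master regulator of the GC, stood at -0.15 (edgeR adjusted p = 0.749) in Smarca4+/- cells and -0.63 (edgeR adjusted p = 0.104) in Smarca4+/+ cells.

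Ratios of Irf4 and Prdm1 to these genes within a library do not depend on its scaling. Per length, Irf4 stood at 65.9% and 24.5% of Bach2 in Smarca4+/- CC, 49.1% and 76.3% in Smarca4+/+ CC, 7.73% and 4.61% in Smarca4+/- CB, and 5.84% and 5.26% in Smarca4+/+ CB. Prdm1 stood at 7.60% and 2.41% of Pax5 in Smarca4+/- CC, 2.56% and 3.25% in Smarca4+/+ CC, 0.614% and 0.247% in Smarca4+/- CB, and 0.354% and 0.542% in Smarca4+/+ CB. Both ratios were higher in every CC library than in any CB library and overlapped between genotypes. The Prdm1 ratios rest on 10 to 24 counts of Prdm1 in each CC library. The part of the T cell and macrophage RNA of the CC libraries in these ratios was not tested. Irf4 relative to Bcl6 did not overlap between the genotypes in CC, with 36.7% and 24.8% in Smarca4+/- CC and 55.1% and 57.7% in Smarca4+/+ CC, beside 15.1% and 8.02% in Smarca4+/- CB and 10.35% and 11.1% in Smarca4+/+ CB. This ratio was singled out after its values were seen, and with 2 libraries a group the smallest 2-sided exact permutation p is 0.333. Neither gene of it passed the genotype test in CC (edgeR adjusted p = 0.46 for Irf4 and 0.423 for Bcl6).

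**Figure D3:**
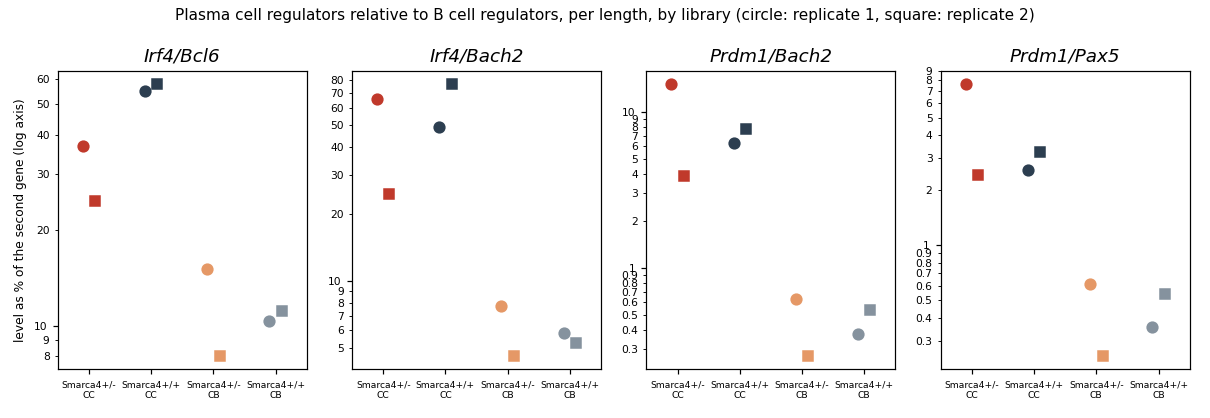
Level of Irf4 or Prdm1 per length as a percentage of Bcl6, Bach2 or Pax5 in each of the 8 libraries, on log axes, with circles for replicate 1 and squares for replicate 2. CC libraries lie above CB libraries in each panel, and Irf4 relative to Bcl6 lies at 36.7% and 24.8% in Smarca4+/- CC and at 55.1% and 57.7% in Smarca4+/+ CC.

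Some of the ER folding genes that Xbp1 and related factors control rose in CC, while Xbp1 itself did not pass the test. Of 16 listed, 1 rose and 0 fell in CC of Smarca4+/- cells, and 4 rose and 0 fell in CC of Smarca4+/+ cells; the median log2 fold change was 0.44 in Smarca4+/- cells, with 16 of 16 positive, and 0.57 in Smarca4+/+ cells, with 13 of 16 positive (14 with RLE or total count scaling). Pdia4, a disulfide isomerase, had 123 and 65.2 CPM in Smarca4+/- CC, 202 and 219 CPM in Smarca4+/+ CC, 40.6 and 30.7 CPM in Smarca4+/- CB, and 38.6 and 31.8 CPM in Smarca4+/+ CB. It rose in CC against CB of Smarca4+/- cells (log2 fold change 1.39, SE 0.32, edgeR adjusted p = 0.037), a call lost without CC replicate 1 or either CB library (adjusted p up to 0.308) and with limma-voom (0.123). The Smarca4+/- call was also lost in edgeR with thinned CB libraries (adjusted p = 0.0623) or only the groups compared (0.0946). Pdia4 rose in Smarca4+/+ cells too (2.58, SE 0.32, edgeR adjusted p = 0.00164), there without each library in turn, and the changes in the 2 genotypes were not shown to differ (-1.19, SE 0.44, edgeR adjusted p = 0.466).

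Sdf2l1, an ER chaperone cofactor, rose in Smarca4+/+ cells (1.42, SE 0.38, edgeR adjusted p = 0.0462), a call lost on leaving out any of the 4 libraries of the comparison (adjusted p up to 0.271) and with limma-voom (0.136). Its call was also lost in edgeR with only the groups compared (adjusted p = 0.0827) or a replicate block (0.0743, and 0.0876 within genotype). The chaperones Hsp90b1 (1.38, SE 0.26, edgeR adjusted p = 0.0114) and Calr (1.13, SE 0.22, edgeR adjusted p = 0.0131) rose in Smarca4+/+ cells too. Hsp90b1 lost its call without either Smarca4+/+ CB library (adjusted p up to 0.117), and Calr without either of these or Smarca4+/+ CC replicate 1 (up to 0.132) and in a fit of only the groups compared (0.0555). Hspa5, the main ER chaperone, had 429 and 275 CPM in Smarca4+/- CC, 341 and 350 CPM in Smarca4+/+ CC, 252 and 199 CPM in Smarca4+/- CB and 251 and 181 CPM in Smarca4+/+ CB, with edgeR adjusted p = 0.206 and 0.135 in Smarca4+/- and Smarca4+/+ cells. These genes are made by most cells, macrophages and T cells included, and the part of the marker levels given above was not tested.

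The ERSE shown in the Creld2 promoter was found in 6 of the 14 listed folding genes that have a RefSeq promoter, where 37 of 32851 promoters hold it. The genes were listed as targets of Xbp1 and related factors, so a high share was likely in advance and is a description only. The sites are printed on the strand that reads CCAAT first, with the fixed letters in capitals and the 9 free bases in lower case.
Hspa5: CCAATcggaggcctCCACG
Calr: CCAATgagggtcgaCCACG
Hsp90b1: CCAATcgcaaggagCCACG
Hsp90b1: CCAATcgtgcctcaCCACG
Canx: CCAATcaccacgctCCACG
Pdia6: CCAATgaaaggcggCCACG
Dnajc3: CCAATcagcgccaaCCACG
Creld2: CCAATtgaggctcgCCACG
Of the genes with a site, Calr and Hsp90b1 rose in Smarca4+/+ CC, while Hspa5, Canx, Pdia6, Dnajc3 and Creld2 did not pass the test. Pdia4 and Sdf2l1 rose there and had no site found. Only 14 of the 16 listed genes had a promoter to search, and whether these were among them is not given here.

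**Figure D4:**
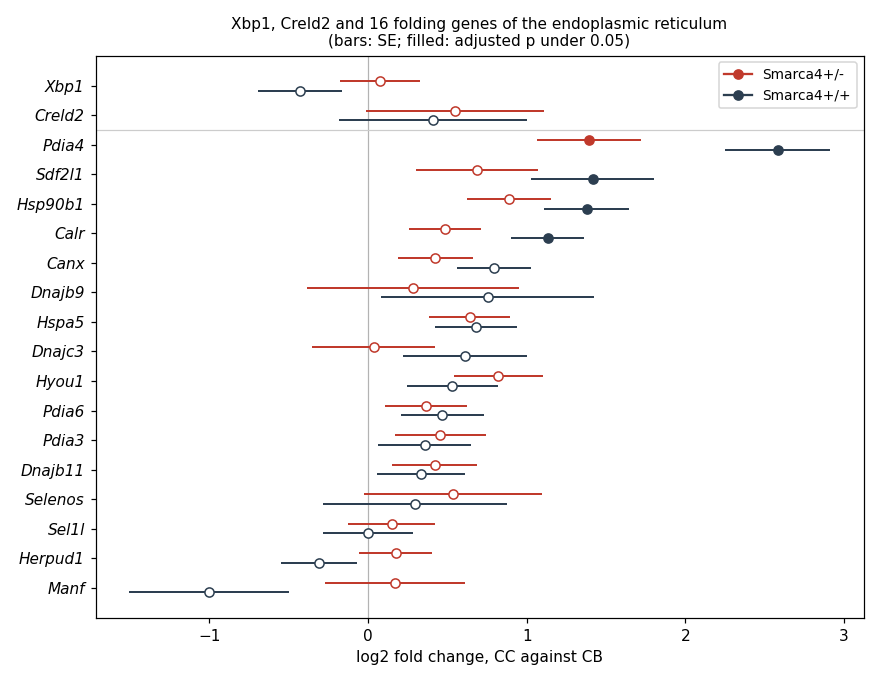
Log2 fold change of CC against CB (x axis) for Xbp1, Creld2 and 16 ER folding genes in Smarca4+/- and Smarca4+/+ cells, with the SE as bars and filled points where the edgeR adjusted p was under 0.05. All 16 folding genes lie above 0 in Smarca4+/- cells and 13 of 16 in Smarca4+/+ cells, while Xbp1 lies at 0.08 in Smarca4+/- cells and -0.43 in Smarca4+/+ cells.

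Other genes of the secretory and plasma cell programmes gave no common direction. Of 18 genes of the ER translocon, signal peptidase and COPII coat, 0 rose and 0 fell in CC of Smarca4+/- cells (median log2 fold change -0.40), and 2 rose and 0 fell in Smarca4+/+ cells (median 0.23). Those were Ssr2, a translocon subunit (1.32, SE 0.31, edgeR adjusted p = 0.0276), and Sec31a, a COPII coat protein (0.95, SE 0.23, edgeR adjusted p = 0.0307), and both calls were lost without either Smarca4+/+ CB library (adjusted p up to 0.22 and 0.244), that of Sec31a also without Smarca4+/+ CC replicate 2. With limma-voom neither was called (0.0949 for Ssr2 and 0.0706 for Sec31a), nor in an edgeR fit of only the groups compared (adjusted p = 0.0783 and 0.0722). Ssr2 was also not called with thinned CB libraries (0.0631) or a replicate block (0.0509, and 0.0851 within genotype). Of 21 further genes linked to plasma cells, 19 were tested, of which 0 rose and 2 fell in Smarca4+/- cells, and 3 rose and 2 fell in Smarca4+/+ cells. Txndc11, an ER thioredoxin protein, fell in both genotypes (-1.80, SE 0.29, edgeR adjusted p = 0.00859 in Smarca4+/- cells and -1.06, SE 0.29, edgeR adjusted p = 0.0473 in Smarca4+/+ cells), and Trp53inp1 fell in Smarca4+/- cells (-1.53, SE 0.25, edgeR adjusted p = 0.00816). Both calls in Smarca4+/- cells were lost without CC replicate 1 or either CB library (adjusted p up to 0.117 for Txndc11 and 0.14 for Trp53inp1), and that of Txndc11 in Smarca4+/+ cells without CC replicate 2 or either CB library (up to 0.315) and with RLE scaling (0.0737). With limma-voom neither gene was called in Smarca4+/- cells (0.0637 for Txndc11 and 0.179 for Trp53inp1), nor was Txndc11 in Smarca4+/+ cells (0.187). The Smarca4+/+ call of Txndc11 was also lost in edgeR with total count scaling (adjusted p = 0.114) or at least 50 counts in 2 libraries (0.065). The same held with thinned CB libraries (0.0829), only the groups compared (0.107) or a replicate block (0.0564).

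In Smarca4+/+ cells Zbtb20, a transcription factor of long-lived plasma cells, fell (-1.14, SE 0.19, edgeR adjusted p = 0.00495), a call lost without Smarca4+/+ CB replicate 1 (adjusted p = 0.0549). Cd28, which is also among the T cell markers, rose there (mean 33.5 CPM in Smarca4+/+ CC and 0.297 CPM in Smarca4+/+ CB, edgeR adjusted p = 0.0191), as did Fndc3b (20.8 and 0.373 CPM, edgeR adjusted p = 0.018) and Il6st, the shared receptor chain of the IL-6 family (81.2 and 10.1 CPM, edgeR adjusted p = 0.00379). Without single libraries the adjusted p reached 0.237 for Cd28, where the call was lost without CC replicate 2 or either CB library, and 0.277 for Fndc3b, where it was lost without CC replicate 1 or either CB library. With CB libraries thinned to the CC depth neither was called (0.0623 for Cd28 and 0.0605 for Fndc3b), nor was Fndc3b in a fit of only the groups compared (0.0569). Il6st lost its call without CB replicate 2 (adjusted p = 0.0602). The T cell and macrophage markers that rose in CC are given above, and their part in these values was not tested.

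Loss of 1 Smarca4 copy went with no called change in any of the 8 tested members. In CC 0 of 8 rose, where 0% of all tested genes rose, and 0 fell, where 0.0231% fell. In CB 0 of 8 were called in either direction, where 0% of all tested genes were called. By edgeR 0 members had an unadjusted p under 0.05 in either fraction, and DESeq2 and limma-voom also called 0. The Smarca4+/- and Smarca4+/+ libraries did not overlap for 3 of 8 members in CC and for 1 of 8 in CB, where 32.6% and 32.1% of all tested genes did not overlap, which is near the background in CC and below it in CB.

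In CC the log2 fold change of Smarca4+/- against Smarca4+/+ was -0.53 for Irf4 (95% interval -1.29 to 0.22), 0.28 for Prdm1 (-1.31 to 1.87), 0.39 for Xbp1 (-0.20 to 0.98) and -0.23 for Jchain (-0.73 to 0.27). In CB it was -0.01 for Irf4 (-0.70 to 0.67), -0.18 for Prdm1 (-1.58 to 1.21), -0.11 for Xbp1 (-0.63 to 0.40) and 0.30 for Jchain (-0.16 to 0.75). The intervals of Xbp1, Ell2 and Jchain are the narrowest in both fractions. No member passed the test of the genotype by cell type interaction, where 0% of all tested genes passed.

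Among the antibody constant genes 2 of 11 fell in Smarca4+/- CC against Smarca4+/+ CC. Igha had 18.7 and 35.6 CPM in Smarca4+/- CC and 683 and 705 CPM in Smarca4+/+ CC (log2 fold change -4.66, SE 0.56, edgeR adjusted p = 0.0175), beside 12.9 and 11.6 CPM in Smarca4+/- CB and 80.7 and 23.0 CPM in Smarca4+/+ CB. Ighg2b had 101.5 and 116 CPM in Smarca4+/- CC and 406 and 517 CPM in Smarca4+/+ CC (-2.08, SE 0.22, edgeR adjusted p = 0.00883). Igha lost its call on leaving out any of the 4 CC libraries (adjusted p = 0.0563 to 0.123), and Ighg2b on leaving out either Smarca4+/- CC library or Smarca4+/+ CC replicate 2 (up to 0.123). With limma-voom neither was called (0.417 for Igha and 0.369 for Ighg2b), and in an edgeR fit of only the groups compared Ighg2b was not (adjusted p = 0.0853). Jchain, whose product pairs with the alpha chain in polymeric IgA, stood at -0.23 (SE 0.23, edgeR adjusted p = 0.633) in the same libraries, and Sdc1 and Tnfrsf17 were near or at 0 counts. The difference between genotypes in the change of CC against CB did not pass the test for Igha (-2.58, edgeR adjusted p = 0.419) or Ighg2b (-2.17, 0.0971).

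The genes whose pattern over the 8 libraries was most like that of a member were taken by the smallest root mean square difference of centred log2 CPM, among 6155 or 6156 genes averaging 20 CPM or more. For Irf4 these were Notch2 (0.227), Hsd17b4 (0.234) and Myo7a (0.255), and for Prdm1 they were Myo9a (0.293), Grn (0.365) and Hip1 (0.37), where the median gene stood at 1.01 and 1.44. For Xbp1 they were Ube2d3 (0.0533), Klc1 (0.0775) and Ubn2 (0.081), with a median gene at 0.471. For Jchain they were Csnk2b (0.135), Minos1 (0.138) and Stag2 (0.144), and for Mzb1 Slc25a36 (0.0966), Pmpcb (0.111) and Zcchc2 (0.12). The 8 libraries share the difference in depth between CC and CB, so this likeness is a description.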

How the data were processed

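The authors deposited raw read counts for each gene, from libraries depleted of ribosomal RNA per the labels' protocols. Per the submitters' processing notes FastQC, STAR, featureCounts, Subread, R 4.2.1 and build mm10 were used; for the strand setting and multi-mapped reads, settings were not given in the sources used here, so overlapping and antisense genes cannot be told apart by strand. The other deposited column is the gene length in bases, used for values per kilobase. Of 55421 identifiers, 55154 had a symbol. Exons of Mzb1 and Ell2 overlap those of genes that had 0 counts.

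Tests used edgeR 4.0.16 in R 4.3.3. The filterByExpr rule (minimum count of 10, total of 15) chose the genes. It applies the minimum count as a CPM cutoff set by the median library total, so genes with few CC counts could pass. Sdc1 passed with 0 to 2 counts in each CC library. TMM scaled the libraries, and 1 quasi-likelihood model with a term for each group took in all 8 libraries, which leaves 4 residual degrees of freedom. The 5 comparisons were 2-sided, with Benjamini-Hochberg adjustment over all 12997 tested genes at 0.05. CPM values use the TMM library sizes. A count of 0 was read as up to 3 counts over the group, and such floors and the Poisson intervals cover counting error only. The alternatives were DESeq2 1.42.0, limma-voom (limma 3.58.1), RLE and total count scaling, 2 other filters, no immunoglobulin genes, thinned CB libraries, only the groups compared, replicate blocks and each library left out.

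The 9 genes and the gene and marker lists were chosen with earlier results of these data known. Of each list the 2 called genes with the largest change in each direction were named by rule; Hsp90b1, Calr, Spib in Smarca4+/+ cells and Il6st were named after their values were seen, as were Hspa5 and Bcl6, which did not pass. The other marker lists (neutrophil, plasmacytoid dendritic, epithelial and stromal) had 0, 0 and 1 called genes in CC against CB of each genotype. Of their markers only 2 of 5, 1 of 6 and 5 of 8 were tested, and the neutrophil sums are given above. Of the B cell identity list, 1 gene is counted but not reported here by name.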

Additional observations from a re-analysis of the deposited data

How the results depend on the processing

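For CC against CB in Smarca4+/- cells 1 member was called, against 3 with DESeq2 and with no low count filter, 2 with a replicate block within genotype (Irf4 and Jchain), 0 with limma-voom, total count scaling, at least 50 counts in 2 libraries or only the groups compared, and 0 to 1 on leaving out each library. RLE scaling and thinned CB libraries called Irf4 there in place of Jchain. In Smarca4+/+ cells 1 was called, against 2 with DESeq2 and 0 to 1 on leaving out each library. Same-numbered libraries did not deviate together (correlations of deviations -0.046 to 0.0527). Counting error in the CC libraries could hide a shared deviation, so whether the numbers pair the libraries is not known. With a replicate block, 1 member was called in each CC against CB comparison and 0 in the others. Genotype and interaction comparisons called 0 members under every alternative run.

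Over all alternatives of single members, 534 values kept direction and call, 13 lost the call, 9 gained it and 28 changed sign, none of them in a called value. Ell2 in CC against CB of Smarca4+/+ cells changed sign with DESeq2 (0.0394), RLE scaling (0.0352), total count scaling (0.0922), at least 50 counts in 2 libraries (0.00546) and thinned CB libraries (0.11). With total count scaling, the genotype difference in CB was 0.0787 for Irf4 and 0.0192 for Mzb1. On leaving out each library the log2 fold change of Smarca4+/- against Smarca4+/+ ranged in CC from -0.21 to 0.64 for Prdm1, -0.69 to 1.04 for Creld2, -0.48 to 0.038 for Jchain and -0.17 to 0.39 for Ell2, and in CB from -0.46 to 0.33 for Irf4, -0.93 to 0.31 for Prdm1 and -0.26 to 0.17 for Mzb1. In CC against CB it ranged from -0.33 to 0.53 for Mzb1 and -0.51 to 1.13 for Creld2 in Smarca4+/- cells, and from -0.31 to 0.89 for Creld2 and -0.41 to 0.15 for Ell2 in Smarca4+/+ cells. The interaction ranged from -0.0264 to 1.23 for Prdm1, -0.90 to 0.82 for Creld2 and -0.10 to 0.47 for Ell2. The causes were not tested. The median of all genes in CC against CB of Smarca4+/+ cells was -0.19 under TMM, -0.07 under RLE and -0.00404 under total count scaling. DESeq2 called 465 genes higher and 381 lower for genotype in CC, where edgeR called 0 and 3. Depth limits Prdm1, Mzb1, Sdc1 and Tnfrsf17 in CC.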

Other observations

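The partners of Ell2 in transcript elongation and the sensors of ER stress held changes that Ell2 and Xbp1 did not show. Of 11 elongation genes, 0 rose and 0 fell in CC against CB of Smarca4+/- cells, and 1 rose and 1 fell in Smarca4+/+ cells. Aff1, a scaffold of the super elongation complex, had 34.7 and 11.9 CPM in Smarca4+/- CC, 89.4 and 199 CPM in Smarca4+/+ CC, 14.5 and 10.9 CPM in Smarca4+/- CB, and 10.2 and 15.6 CPM in Smarca4+/+ CB. It rose in Smarca4+/+ cells (log2 fold change 3.49, SE 0.51, edgeR adjusted p = 0.00322) and without each library of that comparison in turn, with a lowest log2 fold change of 2.78 without Smarca4+/+ CC replicate 2. The T cell markers without Lck were likewise highest in Smarca4+/+ CC (167 and 36.8 CPM in Smarca4+/- CC, 413 and 394 CPM in Smarca4+/+ CC), and their part in the Aff1 values was not tested. Aff4, a paralog of Aff1, fell in Smarca4+/+ cells (-0.98, SE 0.18, edgeR adjusted p = 0.00873), a call lost without either Smarca4+/+ CB library (adjusted p up to 0.09). The difference between genotypes in the change of Aff1 did not pass the test (-2.63, SE 0.72, edgeR adjusted p = 0.419).

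Of 5 sensors and effectors of the ER stress response, 0 rose and 1 fell in each genotype, which is Eif2ak3, the gene of the kinase PERK. It had 45.4 and 107.9 CPM in Smarca4+/- CC, 51.8 and 62.1 CPM in Smarca4+/+ CC, 269.5 and 281 CPM in Smarca4+/- CB, and 302 and 266 CPM in Smarca4+/+ CB. The log2 fold change of CC against CB was -1.83 (SE 0.32, edgeR adjusted p = 0.0112) in Smarca4+/- cells, a call lost without CC replicate 1 or either CB library (adjusted p up to 0.129; log2 fold change -2.63 without CC replicate 2) or with only the groups compared (0.0528), and -2.32 (SE 0.34, edgeR adjusted p = 0.00322) in Smarca4+/+ cells, there without each library in turn. Of 4 genes of the BAFF and APRIL system, the 2 receptors related to BCMA were tested and the 2 ligand genes, Tnfsf13b and Tnfsf13, were not, and neither Tnfrsf13b (TACI; 0.18 in Smarca4+/- and 0.61 in Smarca4+/+ cells, edgeR adjusted p = 0.716 and 0.142) nor Tnfrsf13c (the BAFF receptor; 0.33 and 0.10, edgeR adjusted p = 0.424 and 0.79) passed in CC against CB.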
